A study of Mus musculus with 12 samples.

Results

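The open chromatin of mouse brown fat was mapped as 58558 peaks, and 14734 of them (25.2%) lay more than 50000 bp from the transcription start site that the authors' annotation names as nearest. These far peaks were chosen by that distance alone, at any width, and accessibility played no part in the choice. The other peaks fell into 12563 within 1 kb of a start site, 10551 at 1 to 10 kb and 20710 at 10 to 50 kb.

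Chromatin far from start sites is where most enhancers lie, short stretches of DNA that transcription factors bind and that can act on a gene over long distances by looping. In brown adipocytes, factors such as PPARγ, C/EBPβ and EBF2 bind such elements beside genes of heat production. SWI/SNF complexes use ATP to move nucleosomes and so make DNA accessible, and BAF60a (Smarcd1) is a subunit that links the complex to transcription factors. ATAC-seq reads accessibility as the number of fragments that the Tn5 transposase releases from a region.

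The mice were C57BL/6. Adipocyte-specific knockout (AKO) mice carried floxed BAF60a alleles with Cre driven by the Adiponectin promoter, and the controls (flox) carried the flox/flox alleles without Cre, so the deletion concerns adipocytes while the blood vessel, immune, nerve and stromal cells of the fat pad keep the gene. Whole brown adipose tissue came from 3 mice of each genotype, frozen one by one, and each sample joins 2 transposase reactions. Inguinal fat came from cold-acclimated mice, with 6 mice pooled per genotype and the pool split into 3 aliquots, so p-values for inguinal fat measure only the spread between aliquots of 1 pool. The mice of the cold acclimation were adults, kept in a chamber that was cooled step by step and then held cold for several days. The age and housing temperature of the brown fat mice and the way in which reactions were joined are not given in the sources used here. In whole tissue, fewer cells of a type and less accessibility per cell cannot be told apart.

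Reads in peaks ranged from 6336670 in AKO replicate 2 to 27500738 in flox replicate 1. These libraries also marked the ends of the first principal component (PC1), which held 55.6% of the variance. Its scores were -98.2, -41.8 and 14.6 in flox replicates 1 to 3 and -0.617, 112 and 13.5 in AKO replicates 1 to 3. The genotypes overlapped on PC1, but flox lay lower on the whole. PC1 and genotype are thus partly confounded, and a fit with PC1 does not fully separate them. The start-site peaks of Adipoq and Plin1, genes of fat cells, averaged 1074 and 785 normalized reads. Those of Cidea and Ucp1, genes of brown fat, averaged 1023 and 764. No start-site peak was listed for Ptprc, Cd3e, Pecam1, Cdh5, Myog or Sox10, and Acta1 of skeletal muscle had one at 153. Peaks at other distances were named for Cdh5 (10), Pecam1 (5), Myog (4) and Sox10 (1). A missing start-site peak therefore does not show that such cells were absent. The Smarcd1 start-site peak held 485, 456 and 369 normalized reads in flox and 412, 417 and 497 in AKO. Accessibility of a promoter does not show whether the allele was deleted.

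A set of 5 far peaks are shown by their reference sequence because the results below turn on them: one near Dio2, one near Fam92a and one near Tprg that were lower in AKO brown fat, one near Dnah6 that was higher, and one near Galnt13 that was lower in AKO inguinal fat. Each is the plus strand of GRCm38 (mm10) around the peak centre, 5′ to 3′, in lower case, with capitals for letters that match one of the motifs described further on. The Dio2 sequence was added after its values had been seen.
Dio2, chr12:90643985-90644284: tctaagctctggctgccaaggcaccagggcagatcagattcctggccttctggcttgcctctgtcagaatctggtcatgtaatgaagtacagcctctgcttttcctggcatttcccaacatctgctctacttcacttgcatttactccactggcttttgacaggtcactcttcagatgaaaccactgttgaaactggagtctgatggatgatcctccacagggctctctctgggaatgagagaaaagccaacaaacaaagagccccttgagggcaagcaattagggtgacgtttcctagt
Fam92a, chr4:12481540-12481839: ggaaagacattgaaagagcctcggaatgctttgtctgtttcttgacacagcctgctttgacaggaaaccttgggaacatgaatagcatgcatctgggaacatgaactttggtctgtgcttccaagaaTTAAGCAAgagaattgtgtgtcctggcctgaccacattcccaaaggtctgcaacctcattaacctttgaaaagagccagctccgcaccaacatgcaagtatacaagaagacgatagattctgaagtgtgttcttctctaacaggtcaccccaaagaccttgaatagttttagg
Tprg, chr16:25224778-25225077: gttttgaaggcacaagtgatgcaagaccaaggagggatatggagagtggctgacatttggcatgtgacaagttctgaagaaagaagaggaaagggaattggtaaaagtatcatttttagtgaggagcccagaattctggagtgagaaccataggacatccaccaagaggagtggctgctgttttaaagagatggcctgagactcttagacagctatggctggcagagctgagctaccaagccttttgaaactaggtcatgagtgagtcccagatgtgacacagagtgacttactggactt
Dnah6, chr6:73132852-73133145: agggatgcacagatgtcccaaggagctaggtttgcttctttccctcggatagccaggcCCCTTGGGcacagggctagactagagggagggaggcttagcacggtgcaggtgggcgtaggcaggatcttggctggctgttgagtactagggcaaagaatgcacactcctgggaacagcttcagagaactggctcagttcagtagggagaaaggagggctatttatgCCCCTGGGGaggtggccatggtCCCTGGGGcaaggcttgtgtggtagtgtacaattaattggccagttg
Galnt13, chr2:54558438-54558737: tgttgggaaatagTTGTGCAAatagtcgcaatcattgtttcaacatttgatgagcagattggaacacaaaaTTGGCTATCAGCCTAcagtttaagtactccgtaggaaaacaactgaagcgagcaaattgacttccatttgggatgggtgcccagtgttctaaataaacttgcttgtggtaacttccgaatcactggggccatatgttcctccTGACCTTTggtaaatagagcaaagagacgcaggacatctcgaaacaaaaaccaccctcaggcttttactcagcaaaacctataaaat
The capitals mark 1 C/EBP match near Fam92a, 4 EBF matches near Dnah6, of which a pair overlaps, and 1 match each for C/EBP, NF1 (with 1 mismatch) and NBRE near Galnt13. The Dio2 and Tprg stretches held no match to these motifs.

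The median far peak lay 97280 bp from the named start site and the farthest 1827421 bp. In all, 7622 lay at 50 to 100 kb, 4429 at 100 to 200 kb, 2205 at 200 to 500 kb and 478 beyond 500 kb. Distance to a named start site is not distance to a gene. By the GENCODE vM21 annotation of the same build, 6598 midpoints fell in an intron of a coding gene, 466 in a coding gene's exon and 1191 only in another kind of gene, whereas 6479 (44.0%) were intergenic. Only 4078 were more than 50000 bp from every GENCODE start site, 9880 were that far from every coding start site, and 938 lay within 1000 bp of some start site. In 4231 cases (28.7%) the midpoint was inside the very gene named as nearest, as for 29 of the 30 far peaks of Ntrk3, which encodes the neurotrophin receptor TrkC.

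Far peaks were narrower and less accessible than the rest. Their median width was 390 bp against 483 bp over all peaks and 909 bp within 1 kb of a start site, and their median level was 89.4 normalized reads (read counts divided by each library's size factor, mean of 6 samples) against 125 and 372. Per kb of width the medians were 220, 254 and 392 normalized reads. The level declined with distance, from 94.0 normalized reads at 50 to 100 kb to 64.6 beyond 500 kb. The GC content was 49.6% at the median, against 52.6% over all peaks and 62.3% at start sites. There were 213 far peaks under 100 bp wide and 59 with at least 90% of their bases in soft-masked repeats.

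The highest and widest far peak covered 5285 bp (chr11:94158489-94163773) upstream of Tob1, which encodes an antiproliferative protein, and held 4274, 2877 and 3045 normalized reads in flox and 2925, 2094 and 2461 in AKO. Flox replicate 1 stood highest, and the groups overlapped. The fifth in level (chr6:114857815-114858818), named for Vgll4 and located in an intron of the autophagy gene Atg7, held 2333, 1797 and 1749 in flox and 1972, 1176 and 1654 in AKO. The other three of the top 5 lay close to the starts of chromosomes 4 and 16, nearest to receptor genes of the nose (Vmn1r2 and Olfr161), with 48.6% to 73.5% of their bases in repeats. AKO replicate 2, the shallowest library, was highest in each of them, as at chr4:3089505-3091512 with 1234, 1570 and 2848 normalized reads in flox and 2166, 4489 and 2181 in AKO. Another peak of this region, chr4:3050037-3054049, was among the 3 widest at 4013 bp and also had its highest value in AKO replicate 2, with 626, 813 and 1626 in flox and 1195, 2719 and 1175 in AKO. The part of sequencing depth in these values was not tested.

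The 5 most distant peaks were at 1642345 to 1827421 bp from the named start, near 4930474H20Rik, Pcdh9, Olfm4, Efna5 and Lrrc4c, all intergenic. They were weak, with means of 23.1 to 51.7 normalized reads and widths of 131 to 585 bp, and none overlapped an inguinal peak. At the edge of the distance rule, the 3 peaks just inside (Ipo8 at 50001 bp, Sash1 at 50002 bp and 4930564D02Rik at 50004 bp) averaged 28.1, 121 and 132 normalized reads. The 3 just outside (Dmrta2 at 50000 bp, Srl at 49998 bp and Mir3108 at 49996 bp) averaged 11.4, 203 and 89.3.

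The share of all reads in peaks that fell on far peaks did not separate the genotypes. It was 14.7%, 15.3% and 16.1% in flox and 15.4%, 16.6% and 14.5% in AKO, a mean of 15.4% ± 0.686 (SD, n = 3) and 15.5% ± 1.04 (SD, n = 3). AKO replicate 2 was highest and AKO replicate 3 lowest, so both ends of the range were AKO mice. The mean log2 level of far peaks minus that of all other peaks gave -0.74, -0.70 and -0.63 in flox and -0.69, -0.62 and -0.77 in AKO, again with overlap.

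Single far peaks were then compared between genotypes, to ask which distal elements lose or gain accessibility without BAF60a. The main test was limma on log2(normalized reads + 1) with the PC1 score as a covariate, as the study modelled brown fat, adjusted over all 58558 peaks (Benjamini-Hochberg) and called at an adjusted p under 0.1. It called 0 far peaks lower and 0 higher, with 0% called in each direction over all peaks. At an unadjusted p under 0.05, 1235 far peaks (8.38%) were lower in AKO against 5.59% of all peaks, and 492 (3.34%) were higher against 3.46%. Without PC1 the order turned: 913 far peaks (6.2%) were lower, against a background of 4.37%, and 1211 (8.22%) were higher, against 7.57%.

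DESeq2 on the recovered read counts, with PC1, called 35 of the 9227 far peaks that kept an adjusted p lower (background 0.298% of 42663 peaks) and 7 higher (background 0.11%). The shares of far peaks were 0.379% and 0.0759%. Of the 35, 26 had every AKO sample below every flox sample, beside 10.7% of far peaks and 8.84% of all peaks. Another count was 23 intergenic, and 21 were also called without PC1. The 35 were picked by a test on these same samples, so their separation and repeated calls only describe them. Without PC1, DESeq2 called 76 lower and 77 higher, with backgrounds of 0.517% and 0.512%, so the direction of the split was lost. edgeR called 18 lower (background 0.114%) and 4 higher (background 0.029%), and limma-trend 11 (background 0.0751%) and 2 (background 0.0154%). Leaving out 1 mouse moved the DESeq2 counts to between 4 lower (without flox replicate 3, background 0.0454%) and 25 lower (without AKO replicate 2, background 0.319%), and to between 0 higher (without AKO replicate 1, background 0.00663%) and 64 higher (without AKO replicate 3, background 0.464%). The share of far peaks called was 0.0337% and 0.386% at these lower counts and 0% and 0.69% at the higher ones. Lower counts were 8 without AKO replicate 1 (background 0.129%), 21 without AKO replicate 3 (0.23%), 11 without flox replicate 1 (0.176%) and 7 without flox replicate 2 (0.155%). Higher counts were 10 without AKO replicate 2 (background 0.14%), 2 without flox replicate 1 (0.0573%), 1 without flox replicate 2 (0.0301%) and 1 without flox replicate 3 (0.0119%).

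The share of lower peaks grew with distance. With PC1, 6.94% of peaks at 50 to 100 kb, 8.74% at 100 to 200 kb, 11.7% at 200 to 500 kb and 13.0% beyond 500 kb had an unadjusted p under 0.05 and were lower in AKO, compared with 6.48% at 10 to 50 kb and 1.05% within 1 kb. The share of higher peaks shrank from 3.67% to 1.88% over the same far classes. Without PC1 the lower share also grew, from 5.16% to 10.5%, but the higher share grew too, from 7.81% to 13.4%. The median log2 fold change of far peaks was -0.07 with PC1 and -0.02 without, beside 0.01 and -0.01 for all peaks. Complete separation of the 3 AKO from the 3 flox values needs no model: 1581 far peaks (10.7%) were separated downwards, against 8.84% of all peaks, and 1141 (7.74%) upwards, against 8.77%. The most distant class was also the weakest in level, and the part of level in these shares was not tested.

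**Figure D1:**
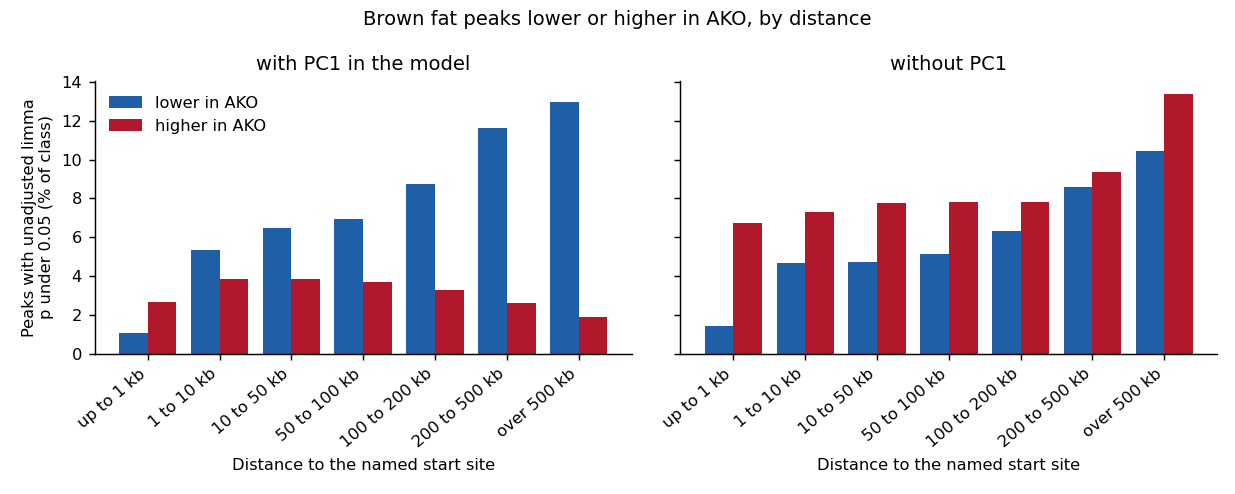
Percent of brown fat peaks in each class of distance to the named start site with an unadjusted limma p under 0.05, lower (blue) or higher (red) in AKO than in flox, with PC1 in the model (left) and without it (right), n = 3 mice per genotype. The lower share rises from 1.05% within 1 kb to 13.0% beyond 500 kb with PC1, and the red bars exceed the blue in every class without it.

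The 6 far peaks with the smallest limma p for a lower level, among those averaging at least 50 normalized reads, all had an adjusted p of 0.417. The peak near Fam92a (chr4:12481487-12481891, 309674 bp upstream, intergenic) held 128, 139 and 163 normalized reads in flox and 61.9, 108 and 62.4 in AKO, without overlap, for a log2 fold change of -1.37 ± 0.20 (SE) and a DESeq2 adjusted p of 0.0122. In an intron of Rad51b, a gene of DNA repair, a peak named for 9430078K24Rik (chr12:79785730-79786196) held 155, 160 and 208 in flox and 85.6, 106 and 92.1 in AKO, again without overlap, for -1.12 ± 0.18 and a DESeq2 adjusted p of 0.0339. In both, every AKO mouse lay below every flox mouse. Without PC1 the log2 fold changes were smaller, at -0.92 and -0.87, with DESeq2 adjusted p-values of 0.117 and 0.0689. AKO replicate 2 was the highest AKO sample and flox replicate 1 the lowest flox sample in each.

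The remaining 4 overlapped between genotypes, and their fitted differences were also smaller without the PC1 term. The intronic peak of Edar, a receptor of ectodermal development (chr10:58606444-58606663), held 81.5, 112 and 131 in flox and 54.6, 94.6 and 46.1 in AKO, and its log2 fold change was -1.37 ± 0.21 with PC1 and -0.77 without. For the peak near Fam173b (chr15:31880622-31880938) the values were 31.4, 73.9 and 115 against 30.9, 57.9 and 29.7, with -1.77 ± 0.28 and -0.76. For the one near Pabpc1 (chr15:36666420-36666887) they were 59.0, 84.2 and 123 against 52.6, 108 and 57.6, with -1.06 ± 0.17 and -0.30. The peak near Rsl24d1 (chr9:73304795-73305052) held 57.5, 90.2 and 95.7 against 40.2, 71.5 and 37.4, with -1.33 ± 0.21 and -0.72. In each of these 4, AKO replicate 2 was the highest AKO sample and flox replicate 1 the lowest flox sample.

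Among the far peaks with the smallest limma p for a higher level, the 5 given here sat in introns of coding genes. The peak in Dnah6, which encodes an axonemal dynein chain, had the lowest p (chr6:73132852-73133145). It held 47.5, 43.6 and 36.2 normalized reads in flox and 114, 94.6 and 106 in AKO, a log2 fold change of 1.52 ± 0.17 with PC1 and 1.29 without, and the DESeq2 adjusted p was 0.0268 with PC1 and 0.0104 without. A peak in Mta3 named for Haao (chr17:83778621-83778926) held 26.6, 23.6 and 34.9 in flox and 66.0, 100.4 and 83.5 in AKO. Its log2 fold change was 1.19 ± 0.22 with PC1 and 1.52 without, and its DESeq2 adjusted p was 0.00707 without PC1, while DESeq2's filter on low means gave none with it. In both peaks the lowest AKO value was over the highest flox value.

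The peak in Sntb1, a syntrophin of the dystrophin complex (chr15:55733165-55733579), held 62.7, 56.2 and 51.7 in flox and 113, 75.3 and 110.3 in AKO. A peak in Slit3, named for Mir218-2 which lies inside that gene (chr11:35475506-35475951), held 77.3, 70.2 and 60.8 in flox and 127, 100.4 and 118 in AKO. Neither overlapped, and DESeq2 gave adjusted p-values of 0.194 and 0.3. The peak in Mlip (chr9:77276819-77277140) did overlap, with 90.4, 51.7 and 41.4 against 115, 54.1 and 90.2, and its log2 fold change was 1.28 ± 0.20 with PC1 and 0.51 without. All 5 had a limma adjusted p of 0.417.

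**Figure D2:**
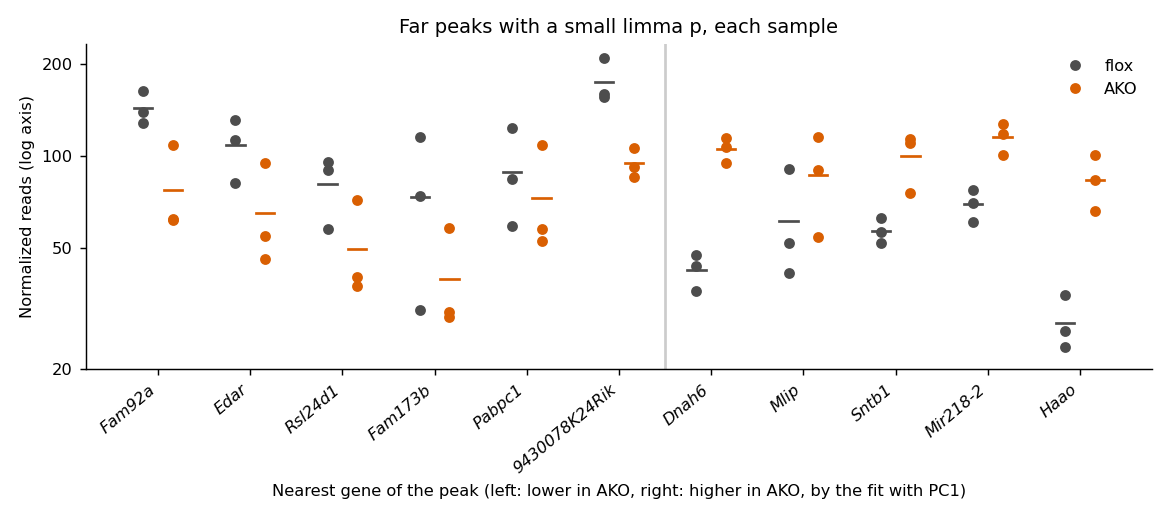
Normalized reads (log axis) of 11 far peaks with a small limma p, 6 lower (left) and 5 higher (right) in AKO, with 1 point per mouse (grey flox, orange AKO, n = 3 each) and bars at the group means. Among the lower peaks the groups are apart near Fam92a and 9430078K24Rik, and among the higher peaks in all but Mlip.

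Named genes with far peaks were then described by lists, 12 in all, with the nearest start site as the label and nothing known of the true target. Thermogenic genes had 77 far peaks, near 12 of the 35 genes listed. The fitted change was below 0 at 54 of the 77, and 16 (20.8%) had an unadjusted p under 0.05 and were lower in AKO, and 0 were higher, with a median log2 fold change of -0.21 (all far peaks 8.38%, 3.34% and -0.07). Without PC1, 10 were lower, 2 higher and the median was -0.09. DESeq2 called 1 of the 77. The mean log2 level of the 77 minus that of the other far peaks was 0.25, 0.39 and 0.24 in flox and 0.10, 0.16 and 0.16 in AKO, so each AKO mouse was below each flox mouse. Their share of reads in peaks overlapped between genotypes, at means of 0.107% in flox and 0.0962% in AKO. No far peak was named for Ucp1, the uncoupling protein that turns the proton gradient into heat.

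Dio2, which encodes the deiodinase that makes active thyroid hormone within brown fat, had 11 far peaks between chr12:90566432 and chr12:90647409, all intergenic and all with a negative log2 fold change. The median over all far peaks was negative too. Summed over them, the samples held 2344, 2527 and 2585 normalized reads in flox and 1686, 1564 and 1568 in AKO, so that each AKO mouse lay below each flox mouse. The peak 94902 bp from the Dio2 start (chr12:90643784-90644485) held 573, 841 and 740 normalized reads in flox and 402, 417 and 303 in AKO. Its log2 fold change was -1.15 ± 0.25 (limma adjusted p = 0.436), and DESeq2 called it with an adjusted p of 0.000141 with PC1 and 0.00412 without. In inguinal fat the same place held 27.8, 31.1 and 19.8 in flox and 23.1, 30.8 and 33.1 in AKO, with overlap. At an unadjusted p under 0.05, both fits put 5 of the 11 lower. The shares were 8.38% of far peaks and 5.59% of all peaks with PC1, and 6.2% and 4.37% without. Of the 11, 6 were separated downwards, beside 10.7% of far peaks and 8.84% of all peaks. The other Dio2 peak with a small p (chr12:90592092-90592553) overlapped, with 101, 134 and 168 against 74.2, 145 and 89.2, at -1.02 ± 0.18 (adjusted p = 0.417).

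Ppargc1a, the gene of the coactivator PGC-1α that drives mitochondrial and thermogenic genes, had 21 far peaks over chr5:51039675-51849622, and all 21 had a negative log2 fold change with PC1. With PC1 the median over all far peaks was itself negative. Of the 21, 9 were lower at an unadjusted p under 0.05 with PC1, beside 8.38% of far peaks and 5.59% of all peaks. Without PC1, 2 were lower, beside 6.2% and 4.37%. Their summed level was 3921, 4819 and 4538 normalized reads in flox and 3293, 3577 and 3343 in AKO, without overlap. The one farthest from the start (chr5:51039675-51041867, 513150 bp) was also the strongest, with 1710.2, 1708 and 1664 in flox and 1269, 1010.1 and 1150 in AKO. It had a log2 fold change of -0.44 with PC1 and -0.57 without, and a DESeq2 adjusted p of 0.2. Of the other thermogenic genes, Esrrg, an oestrogen-related receptor, had 16 far peaks and a summed level that overlapped, and Ppargc1b had 7, of which 4 were negative. The Ppargc1a counts changed with the PC1 term, and the part of the libraries at the ends of PC1 in them was not tested.

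The adipocyte transcription factors had 207 far peaks near 20 of 34 genes, of which 22 (10.6%) were lower and 2 (0.966%) higher at an unadjusted p under 0.05, beside 8.38% and 3.34% of far peaks and 5.59% and 3.46% of all peaks, with a median of -0.11. Without PC1, 15 were lower and 4 higher, 7.25% and 1.93%, beside 6.2% and 8.22% of far peaks. Their mean log2 level minus that of the other far peaks was 0.12, 0.17 and 0.10 in flox and 0.06, -0.06 and 0.08 in AKO, without overlap. Their share of reads in peaks did overlap, at means of 0.230% in flox and 0.219% in AKO. DESeq2 called 0 of them. The 2 with the smallest p were near Nr2f2, an orphan nuclear receptor (chr7:70822317-70822575), with 35.5, 59.9 and 69.9 in flox and 27.8, 42.5 and 20.1 in AKO, and in Nfia (chr4:97886011-97886154), with 25.1, 24.4 and 37.5 against 16.5, 29.0 and 20.1. Both overlapped, with adjusted p-values of 0.417 and 0.44.

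Nfia, a nuclear factor I gene that promotes the brown fat program, had more far peaks than any other gene off chromosome 18, 44 in all. Of them 37 had a negative log2 fold change, as the median far peak did, and 31 lay within Nfia itself. At an unadjusted p under 0.05, 8 were lower and 0 higher, beside 8.38% and 3.34% of far peaks and 5.59% and 3.46% of all peaks. Without PC1, 5 were lower and 0 higher, beside 6.2% and 8.22% of far peaks and 4.37% and 7.57% of all peaks. Their sum was 7171, 8192 and 7353 normalized reads in flox and 6567, 6082 and 6189 in AKO, apart in all mice. The next were Bmper, a regulator of BMP signalling, with 31, Tbl1xr1, a part of corepressor complexes, and Ntrk3 with 30 each, and Ly86 with 29, followed by Pard3, Thrb and H2afy3 with 28 each. Sums were also apart and lower in AKO for Bmper, Tbl1xr1, Ly86 and Pard3, and overlapped for Ntrk3, Thrb and H2afy3. How often sums of other genes separate was not computed, here or for the other sums given. Strong peaks weigh most in a sum. The read share of all far peaks averaging 200 to 500 normalized reads was itself apart and lower in AKO (means 5.29% in flox and 5.04% in AKO). So was that of far peaks over 500 (2.76% and 2.51%). Thrb, a thyroid hormone receptor gene, went the other way in count, with a positive log2 fold change at 22 of its 28 far peaks and a median of 0.18 with PC1 and 0.03 without.

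Ly86, which encodes the immune protein MD-1, is the name given to a run of 29 far peaks between chr13:37214657 and chr13:37562986, with 2 of them inside the gene. Their summed level was 8937, 9161 and 8279 in flox and 7182, 6482 and 6960 in AKO. The far peak with the smallest DESeq2 p lay there (chr13:37484546-37485246), with 536, 599 and 498 normalized reads in flox and 192, 359 and 228 in AKO, a DESeq2 log2 fold change of -1.42 ± 0.24 and an adjusted p of 1.01e-05. DESeq2 also called chr13:37482542-37483552, with 914, 931 and 781 against 425, 494 and 506 (adjusted p = 0.00204). It called chr13:37467826-37468754 as well, with 315, 360 and 332 against 163, 172 and 205 (adjusted p = 0.0398). Both lie at lower coordinates than the first. All 3 were called without PC1 too, and they are named here after their values were seen. The same holds for 3 called peaks near Rnf152, between 167553 and 248530 bp from its start, of which chr1:105187955-105190359 held 769, 1151 and 956 in flox and 594, 603 and 612 in AKO. Apart from these, the called peaks were spread over genes, 30 in all for the 35 lower ones.

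**Figure D3:**
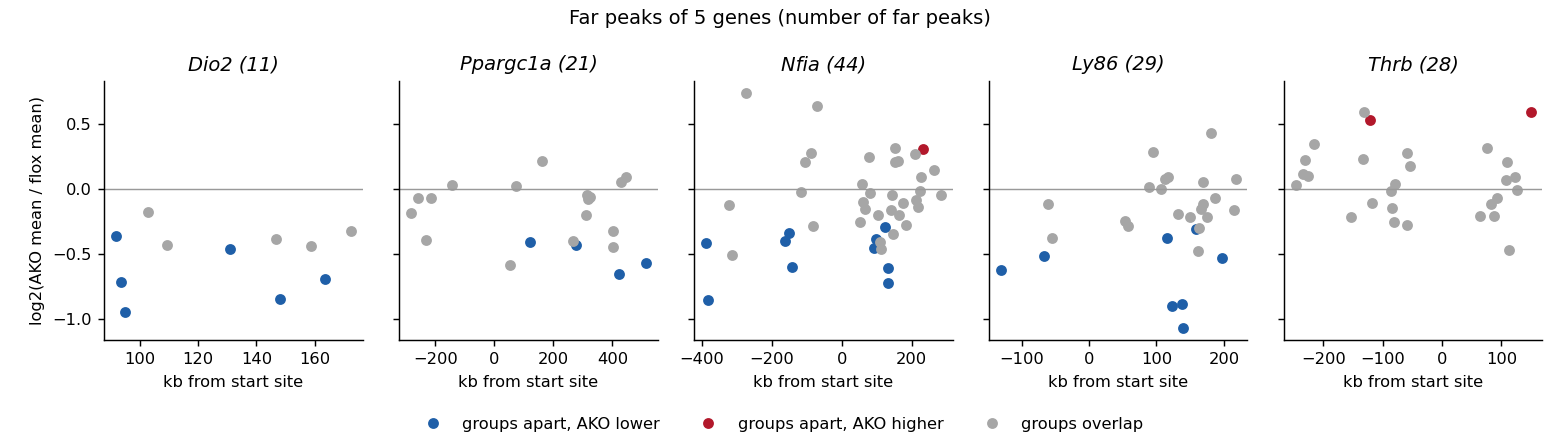
Log2 ratio of the AKO mean to the flox mean of normalized reads (n = 3 mice each, no PC1 term) for every far peak named for Dio2, Ppargc1a, Nfia, Ly86 and Thrb, against its signed distance from the start site in kb, where blue and red mark peaks with no overlap between genotypes. All 11 Dio2 points lie below 0, some Ppargc1a points lie above it without the PC1 term, and the Thrb points scatter on both sides.

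Genes of lipid and insulin metabolism had 84 far peaks near 14 of 40 genes, with 5 lower (5.95%, near the 5.59% of all peaks and under the 8.38% of far peaks) and 2 higher (2.38%, beside 3.46% of all peaks) at an unadjusted p under 0.05. Without PC1, 10 (11.9%) were lower and 3 (3.57%) higher, beside 4.37% and 7.57% of all peaks. The mean log2 level of the 84 minus that of the other far peaks overlapped, at means of 0.43 in flox and 0.23 in AKO. Their share of reads in peaks overlapped too. The peak near Lpin1, a phosphatidate phosphatase (chr12:16395549-16396056), held 80.5, 98.3 and 136 in flox and 59.8, 102 and 41.3 in AKO, with -1.35 ± 0.26 and a DESeq2 adjusted p of 0.0744, but overlapped. The one in the insulin receptor gene Insr (chr8:3139580-3139945) held 91.4, 99.0 and 113 against 47.4, 69.5 and 74.8, without overlap and with a limma adjusted p of 0.463. Summed far peaks of Acsl1, which activates long-chain fatty acids, were 3741, 3581 and 2877 in flox and 2703, 1864 and 2058 in AKO, and those of the fatty acid elongase gene Elovl6 were 3149, 2100.1 and 2105 against 1868, 1277 and 1374. In both the groups were apart, and flox replicate 1 was highest. Both sums were added after values had been seen.

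Developmental patterning factors, many of which sit in gene deserts, had 137 far peaks near 28 of 40 genes. With PC1, 17 were lower and 5 higher at an unadjusted p under 0.05, beside 8.38% and 3.34% of far peaks. Without PC1, 8 were lower and 16 higher, beside 6.2% and 8.22% of far peaks. Their direction turned with the model, as it did for far peaks as a whole. Over all peaks the shares were 5.59% and 3.46% with PC1 and 4.37% and 7.57% without. The peak given for this list was named for Irx3 and lay in an intron of Fto (chr8:91576660-91577053), with 112, 112 and 55.6 in flox and 155, 71.5 and 139 in AKO, which overlapped. The mean log2 level of the list minus that of the other far peaks overlapped, at means of -0.20 in flox and -0.14 in AKO. The list's share of reads in peaks overlapped too. The summed Irx3 far peaks, added after values had been seen, were 1837, 1973 and 1936 in flox and 2387, 2237 and 2157 in AKO, higher in every AKO mouse.

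Lists for the other cells of the pad held fewer far peaks. Their counts at an unadjusted p under 0.05 are with PC1 unless stated. They stand beside 8.38% lower and 3.34% higher of far peaks, and 5.59% and 3.46% of all peaks. Without PC1 the shares were 6.2% and 8.22% of far peaks, and 4.37% and 7.57% of all peaks. With so few peaks per list, no list is read as differing from those shares. There were 24 near endothelial genes (1 lower, 0 higher), 2 near myeloid genes (0 and 0), 15 near lymphocyte genes (2 and 0 with PC1, 0 and 1 without), 3 near skeletal muscle genes (0 and 0), 40 near fibroblast and progenitor genes (1 and 2), 30 near Schwann cell and neuronal genes (0 and 2), 12 near core clock genes (2 and 0) and 0 near smooth muscle and pericyte genes. The endothelial peak with the smallest p, upstream of the cadherin gene Cdh5 (chr8:104027600-104028997), held 301, 325 and 322 in flox and 216, 296 and 230.3 in AKO, and the next, upstream of Sox17 (chr1:4549804-4550436), 145, 160 and 151 against 111, 110.1 and 119. Neither overlapped, at adjusted p-values of 0.489 and 0.552. The inguinal partner of the Cdh5 peak held 77.0, 83.4 and 72.3 in flox and 56.5, 62.8 and 54.5 in AKO, apart in the same direction, with an adjusted p of 0.471 by DESeq2. With 24 peaks, the endothelial list as a whole had a median log2 fold change of -0.11 with PC1 and 0.09 without.

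The peaks given for the fibroblast, Schwann cell and clock lists were chosen for their small p, so their separation is a description. Near the collagen gene Col3a1, in an intron of Col5a2 (chr1:45381961-45382214) the values were 70.5, 70.9 and 69.9 in flox and 47.4, 48.3 and 52.8 in AKO, and near Twist2, a factor of mesenchymal cells (chr1:91863778-91863920), they were 30.8, 31.0 and 18.1 against 45.4, 40.6 and 44.1. Both were apart, in opposite directions. In Rbfox1, a splicing factor of neurons (chr16:6716251-6716558), they were 73.7, 55.4 and 68.6 against 92.8, 81.1 and 109, and near Ncam1, a neural adhesion molecule (chr9:49872075-49872289), 16.7, 15.5 and 22.0 against 37.1, 63.7 and 29.7, again apart. The peak near Nfil3, a repressor in the clock (chr13:53125638-53126287), held 175, 271 and 229 against 153, 160 and 154, apart, and the one near Hlf (chr11:90502002-90502207) overlapped at means of 37.3 and 32.8.

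Peaks near Bcl11b (means of 14.03 and 16.7 in flox and AKO) and Runx3 (50.1 and 64.4), factors of T cells and both counted as lower with PC1, and Myf5 (51.7 and 47.1) overlapped, and the one in Pax7 (65.8 and 103), which with Myf5 marks the muscle lineage, did not. At Bcl11b and Runx3 the AKO mean was above the flox mean while the log2 fold change was -2.97 and -0.57 with PC1, and without PC1 it was -0.55 and 0.32. The lowest limma adjusted p of these peaks was 0.506, at Bcl11b.

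The sequence of each peak was searched on both strands for 10 short motifs. Those reported are C/EBP as TTGCNNAA, EBF as CCCNNGGG, NBRE (the extended site of NR4A and related nuclear receptors) as AAAGGTCA, PPARE (the PPAR element) as AGGTCANAGGTCA with up to 2 mismatches, NF1 as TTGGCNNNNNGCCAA with up to 1, CTCF as CCANNAGNNGGC, AP-1 as TGANTCA, GRE as GNACANNNTGTNC, ETS as CCGGAAGT and SP1 as GGGGCGGGG. NBRE shares its AGGTCA with PPARE, so matches of the pair can overlap. In the central 200 bp, a length equal for every peak, 14.6% of far peaks held a C/EBP match, against 11.0% of all peaks and 4.12% at start sites, and the share grew from 13.3% at 50 to 100 kb to 20.1% beyond 500 kb. NBRE was in 2.69% of far peaks against 1.95% of all, and PPARE in 5.38% against 4.56%. CTCF went the other way with 3.33% against 3.91%, falling to 1.46% beyond 500 kb, and SP1 was in 0.781% against 3.17%. These shares differ in base composition too, since far peaks were poorer in GC.

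The far peaks with an NBRE match were the motif group with the largest share lower in AKO. Of 396, 53 (13.4%) were lower and 8 (2.02%) higher at an unadjusted p under 0.05, beside 8.38% and 3.34% of far peaks and 5.59% and 3.46% of all peaks. Without PC1, 49 (12.4%) were lower and 15 (3.79%) higher, beside 6.2% and 8.22% of far peaks. Their mean log2 level minus that of the far peaks without a match was 0.05, 0.04 and -0.10 in flox and -0.16, -0.25 and -0.20 in AKO. Far peaks with PPARE had 87 of 793 (11.0%) lower and 19 higher (70 and 48 without PC1), and per-mouse values of 0.12, 0.13 and 0.11 in flox and 0.07, 0.02 and 0.04 in AKO. Those with C/EBP had 195 of 2156 (9.04%) lower and 65 higher (186 and 108 without PC1), and NF1 19 of 257 (7.39%) lower and 6 higher (15 and 6 without PC1). With PC1 the C/EBP share was close to that of far peaks and the NF1 share under it. In the per-mouse level, each AKO mouse was below each flox mouse in all 4 groups. The share of reads in peaks was also apart and lower in AKO for NBRE and C/EBP, but overlapped for PPARE and NF1.

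Matches to EBF, ETS and SP1 differed the opposite way in level, with every AKO mouse above every flox mouse. For EBF the values were -0.09, -0.04 and -0.04 in flox and -0.02, 0.00 and 0.01 in AKO, and for SP1, found in 115 far peaks, they were 0.03, 0.06 and 0.08 against 0.16, 0.26 and 0.25. CTCF, AP-1 and GRE overlapped. In the share of reads in peaks, EBF and SP1 overlapped too, while ETS was apart and higher in AKO. At 10 to 50 kb, 8.85% of 452 NBRE peaks and 6.58% of 1110 PPARE peaks were lower with PC1, beside 6.48% of all peaks there. In that class the read shares of NBRE, PPARE, C/EBP, NF1 and EBF peaks overlapped. Those of ETS and SP1 peaks were apart and higher in AKO. A match names letters and not a bound factor, and peaks can hold several motifs.

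**Figure D4:**
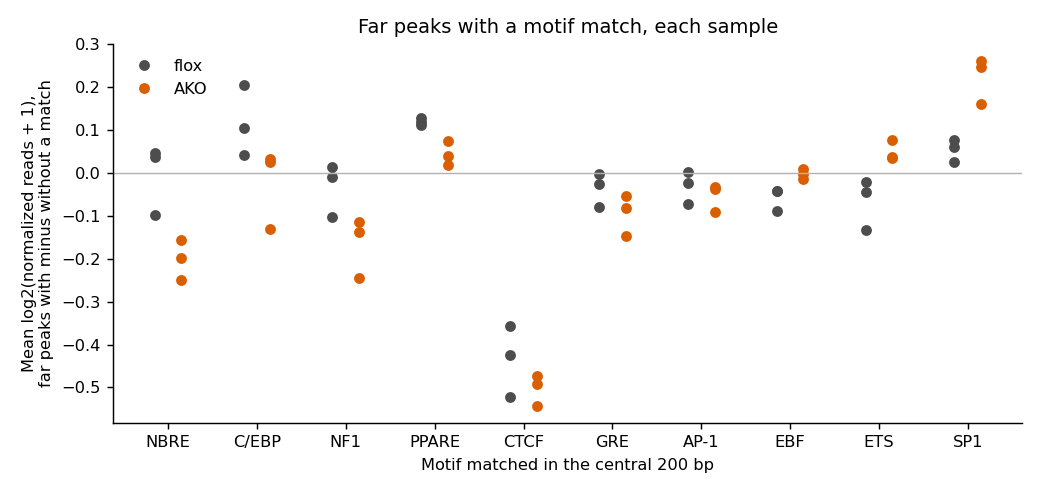
Mean log2(normalized reads + 1) of far peaks with a motif match in the central 200 bp minus that of far peaks without, with 1 point per mouse (grey flox, orange AKO, n = 3 each). AKO points lie below all flox points for NBRE, C/EBP, NF1 and PPARE, above them for EBF, ETS and SP1, and among them for CTCF, GRE and AP-1.

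Of the 14734 far peaks, 5901 overlapped an inguinal peak by at least 1 bp, 40.1% (95% Wilson interval 39.3% to 40.8%, counting error only). The share was 53.8% over all brown fat peaks, 45.2% at 10 to 50 kb, 46.2% at 1 to 10 kb and 90.4% within 1 kb. It was 42.5% at 50 to 100 kb and 29.5% beyond 500 kb. Within bands of level the far and the 10 to 50 kb peaks lay close together. At means under 50 normalized reads 14.8% of far and 15.3% of 10 to 50 kb peaks were shared, at 50 to 100 27.8% and 30.6%, at 100 to 200 48.1% and 51.0%, at 200 to 500 77.1% and 77.5%, and above 500 93.6% and 93.8%. The inguinal libraries were shallower, at 4066720 to 6691161 reads in peaks.

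**Figure D5:**
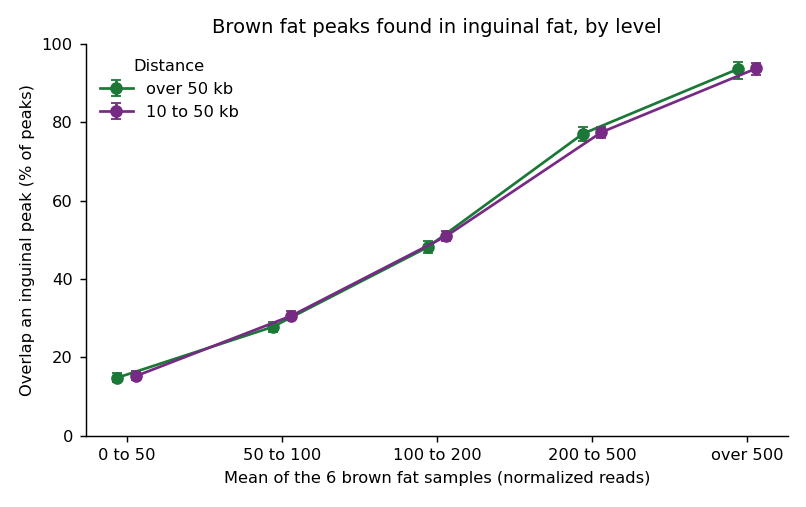
Percent of brown fat peaks that overlap an inguinal peak, by mean level in the 6 brown fat samples, for far peaks (green) and peaks at 10 to 50 kb (purple), with 95% Wilson intervals. The share climbs from 14.8% to 93.6% in far peaks and from 15.3% to 93.8% at 10 to 50 kb.

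Far peaks of thermogenic genes overlapped inguinal peaks in 20 of 77 cases (25.97%), with 3 of 11 for Dio2 and 2 of 21 for Ppargc1a, whereas adipocyte transcription factors had 100 of 207 (48.3%). The 8833 far peaks with no inguinal partner were weaker, with a median of 67.4 against 153 normalized reads, and 11.2% of them were lower in AKO brown fat at an unadjusted p under 0.05 with PC1, against 4.24% of the shared ones. Without PC1 these shares were 7.08% and 4.88%, and 9.39% and 6.47% were higher. By complete separation the order was the other way, with 9.997% of the unshared and 11.8% of the shared peaks lower. NBRE matches were in 3.12% of the unshared and 2.03% of the shared peaks.

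The 5901 shared far peaks matched 5877 inguinal peaks, whose own comparison rests on separate tissue. limma called 0 of them lower and 0 higher (0% of all 39558 inguinal peaks in each direction). At an unadjusted p under 0.05, 420 (7.15%) were lower against a background of 7.42%, and 560 (9.53%) were higher against 7.61%. DESeq2 called 29 lower (background 0.63%) and 32 higher (background 0.546%) and edgeR 122 (background 2.52%) and 135 (background 2.15%). The shares of partners were 0.535% and 0.591% by DESeq2 and 2.08% and 2.30% by edgeR. Among the 14 DESeq2-called lower far peaks of brown fat that had a partner, the inguinal log2 fold change was negative in 9 and positive in 5, with 3 lower and 0 higher at an unadjusted p under 0.05.

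The partner with the smallest p for a lower level was at the intergenic Tprg peak, 61890 bp upstream (chr16:25224686-25225168). It held 136, 92.3 and 103 normalized reads in inguinal flox aliquots and 41.5, 43.4 and 54.5 in AKO, a log2 fold change of -1.22 ± 0.19 (limma adjusted p = 0.149, DESeq2 adjusted p = 0.00105). In brown fat the same place held 299, 358 and 464 in flox and 204, 209 and 182 in AKO, with -1.14 ± 0.21 and a DESeq2 adjusted p of 0.000482. Both tissues were apart in the same direction, and DESeq2 called the peak in each.

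The other 4 lower partners were at Palld, an actin-binding protein gene (chr8:61641422-61641703, with 27.1, 46.7 and 33.6 in flox and 8.07, 12.6 and 12.8 in AKO), Galnt13, a glycosyltransferase gene (chr2:54558431-54558743), Slc4a4, a bicarbonate transporter gene (chr5:88970403-88970648), and Prdm1, a transcriptional repressor gene (chr10:44589325-44589746). The Galnt13 partner held 83.4, 74.5 and 90.4 in flox and 38.0, 37.7 and 49.2 in AKO (log2 fold change -0.98 ± 0.16, DESeq2 adjusted p = 0.031). In brown fat this peak held 77.9, 62.8 and 68.6 against 64.9, 56.0 and 32.6, which overlapped. The Prdm1 partner held 135, 117 and 134 against 74.9, 76.5 and 75.9, and in brown fat 187, 161 and 158 against 128, 86.9 and 124, apart in both tissues. The Slc4a4 partner had means of 28.1 and 14.95. All 5 had a limma adjusted p of 0.149.

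The 5 higher partners were named for Plxna1, Zranb2, Akirin2, 4933416M06Rik and Edn2. The one named for Zranb2 lies in an intron of Negr1, a neural adhesion gene (chr3:157208996-157209565), and held 14.97, 14.5 and 21.5 normalized reads in flox and 48.4, 44.5 and 41.7 in AKO, a log2 fold change of 1.37 ± 0.18 (DESeq2 adjusted p = 0.031), while in brown fat it held 199, 199 and 224 in flox and 246, 212 and 202 in AKO. The one in Chchd6 named for Plxna1 (chr6:89467355-89467693) had 30.7, 33.4 and 29.3 against 71.5, 69.6 and 73.8 (1.18 ± 0.13, DESeq2 adjusted p = 0.00887), while brown fat held 144, 124 and 124 against 123, 133 and 136. In both, the brown fat groups overlapped and the inguinal groups were apart. The Edn2 partner in Hivep3 (chr4:120024146-120024510) had means of 22.2 and 56.6, the Akirin2 partner 10.2 and 22.0, and the 4933416M06Rik partner 16.97 and 36.2. Each had a limma adjusted p of 0.149.

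Of the 5877 inguinal partners, 535 (9.1%) were separated downwards, beside 10.3% of all inguinal peaks, and 694 (11.8%) upwards, beside 10.6%. Over all 5901 pairs, 86 were separated downwards in both tissues, 76 upwards in both, 59 downwards in brown and upwards in inguinal fat, and 33 the reverse. These are 1.46%, 1.29%, 1% and 0.559% of the pairs, beside 1.05%, 1.21%, 0.826% and 0.648% of all 31489 brown fat peaks with an inguinal partner.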

How the data were processed

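ATAC-seq of brown and inguinal fat was analysed from 2 deposited peak tables (mm10). According to the methods, the authors trimmed adapters, mapped with bwa 0.7.17-r1188, marked duplicates with Picard 2.8.14, kept autosomal high-quality pairs, called broad peaks with MACS2 2.1.1.20160309, removed blacklisted regions, merged peaks found in at least 2 of 3 replicates, counted reads with bedtools 2.27.1 and scaled and tested them with DESeq2 1.20.0, with PC1 for brown fat. The deposited values are a signal, reads per peak divided by a size factor. Dividing by the smallest step gave whole reads for 100% of values within 0.001. Nuclei per reaction differ between labels (50000) and methods. Columns with the authors' means, fold changes and p-values were not used. 0 per-sample columns were left out.

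Far peaks were taken by the deposited distance. limma 3.58.1 was run on log2(value + 1), over all 58558 or 39558 peaks, with DESeq2 1.42.0 and edgeR 4.0.16 on recovered reads as alternatives (R 4.3.3). The tools were run on simulated data without PC1 in the model, so the fits with PC1 were not tested in that way. No exact permutation p is given for per-mouse scores over far peaks, and 3 against 3 cannot go below 0.1. Error bars after log2 fold changes are SEs. Intervals cover counting error only. Named peaks were, off chromosome 18, the 6 of smallest limma p per direction at a mean of 50 or more, the 5 farthest, the 5 highest, the 3 widest, the 3 on each side of the limit, the 6 genes with most far peaks and ties, 2 per gene list, and 5 inguinal partners per direction. The values of Ppargc1a, Esrrg, Ppargc1b, Acsl1, Elovl6 and the Irx3 sum, the called Ly86 and Rnf152 peaks and the Dio2 sequence were added after values had been seen. Some peaks that meet these rules are not reported here. Members and lists were chosen with earlier results of these data known. Annotation and sequences came from GENCODE vM21 and the RefSeq GRCm38 assembly, whose chromosomes match mm10. The labels name 3 samples per group. Alternatives covered scaling, tool, filter, pseudocount, PC1, replicate block, left-out samples, threshold, distance limit and overlap rule.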

Additional observations from a re-analysis of the deposited data

Results flagged for a closer look

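A pair of named far peaks had every AKO sample on one side of every flox sample in brown fat and on the other side in inguinal fat. Of the 5901 far pairs, 59 (1%) were lower in brown and higher in inguinal fat, and 33 (0.559%) the reverse. The shares over all 31489 pairs were 0.826% and 0.648%, so such pairs are not particular to these 2 peaks. The difference between the tissues was not tested. At chr10:8935497-8936647, 50002 bp from Sash1, brown fat held 76.8, 96.8 and 122 normalized reads in flox and 138, 155 and 135 in AKO, while the inguinal partner held 133, 137 and 124 in flox and 115, 103 and 97.3 in AKO, a log2 fold change of -0.32. At chr13:101316455-101316888, near 4933416M06Rik, brown fat held 188, 151 and 186 in flox and 121, 149 and 109 in AKO, while the inguinal partner held 19.2, 14.5 and 17.2 in flox and 40.3, 33.1 and 35.3 in AKO, a log2 fold change of 1.06. This second peak was named for the small p of its inguinal partner, so its inguinal separation only describes it. The inguinal values are aliquots of 1 pool per genotype.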

How the results depend on the processing

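The calls of far brown fat peaks were 0 in each direction by limma under every scaling, filter, pseudocount, PC1, threshold, distance and annotation alternative and without each mouse, but not by tools that model counts or a mean trend. Lower and higher calls were 35 and 7 with DESeq2, 18 and 4 with edgeR, 11 and 2 with limma-trend, and, chosen after seeing the data, 76 and 77 with DESeq2 without PC1 and 4 to 25 (8 without AKO replicate 1, 21 without AKO replicate 3) and 0 to 64 (10 without AKO replicate 2, 1 without flox replicate 2 or 3) with DESeq2 leaving out each mouse. The shares of all peaks for these brown fat counts are given above. For inguinal partners the main test called 0 and 0. DESeq2 called 29 and 32 (0.535% and 0.591%, beside 0.63% and 0.546% of all inguinal peaks). edgeR called 122 and 135 (2.08% and 2.3%, beside 2.52% and 2.15%). limma-trend called 92 and 111 (added after seeing the data), and its share of all inguinal peaks is not given here. The median log2 fold change of far peaks stayed negative, from -0.12 to -0.02. The labels' replicate numbers do not pair the samples (correlations of same-numbered deviations 0.494, 0.0632 and -0.236 in brown fat, and -0.0387, -0.0497 and -0.0566 in inguinal fat). A replicate block gave 0 and 0 calls in both tissues, and a median of -0.12 with PC1 and -0.02 in its place.

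The difference in mean log2 level (far minus other peaks, AKO minus flox, main -0.00421) was 0.00224 with a limit of 25000 bp and -0.0425 to 0.0349 without single mice. The difference in read share (0.105 percentage points) was -0.44 to 0.60 without single mice. The inguinal share was 30.3% with overlap of at least 50% of the brown fat peak, 27.6% with 50% of both, 47.2% at means of at least 50 normalized reads, 47.5% at 300 to 1000 bp, 41.6% beyond 25000 bp and 37.4% beyond 100000 bp. Signs turned for the Runx3 peak (0.32 without PC1 and with the block in its place) and, with PC1 in inguinal fat, the Tprg, Galnt13 and Zranb2 partners (1.92, 0.28 and -0.33), where PC1 separates the genotypes. The other causes were not tested. AKO replicate 2 had the fewest reads in peaks, and each genotype had 3 mice.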
